A study of Rattus norvegicus with 17 samples.

Results

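The data describe a family of transcription factors with a basic leucine zipper, the C/EBP factors Cebpa, Cebpb, Cebpd and Cebpg, the PAR factors Tef and Hlf, and Nfil3. Members were the 7 named genes, and a gene counted as measured where a probe set carried its symbol alone, with the brightest probe set taken for each gene. Of the 7, 5 were measured (Cebpa, Cebpb, Cebpg, Nfil3 and Tef), each by 1 probe set, among 13197 genes with a value on every array. Cebpd was not analysed here, because no probe set in the tables carried its symbol. The only probe set for Hlf carried 2 symbols, LOC690286 and Hlf, and 690286 is the RefSeq gene ID of rat Hlf. Its values are given but it was left out of the counts.

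Each of 17 microarrays for rat transcripts held the RNA of 1 middle cerebral artery (MCA) from female Wistar rats of approximately 250 g. The 6 control MCAs came from healthy rats that were not operated. The 6 non-occluded and 5 occluded MCAs came from 6 rats with transient middle cerebral artery occlusion (tMCAO), in which a filament blocks the artery under isoflurane anesthesia and is later withdrawn, and the arteries were taken 3 h after reperfusion. Both arteries of 5 operated rats were on arrays. No group was sham-operated, the filament was always on the right and the non-occluded artery on the left, so that occlusion cannot be told apart from surgery in comparisons with control MCAs, or from side between the arteries of a rat. Rats in proestrus were not included. Values are log2 expression values, on which a difference of 1 is a doubling of the signal. They ran from 2.87 to 13.74 over all arrays, with array medians between 7.33 and 7.47. Arrays have no read depth, and the number of arrays limits the precision.

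C/EBP factors bind DNA as dimers and drive genes of differentiation, metabolism and the acute phase, and Cebpb is known as a factor that cytokines of the interleukin-6 family switch on. Cebpg lacks the activation domain of the other family members and acts as a partner in dimers. The PAR factors Tef, Hlf and Dbp activate genes through a DNA element called the D-box, and Nfil3 represses through the same element, so that both kinds of factor act on output genes of the circadian clock.

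On the array annotation, for which no build was found in the sources, the Cebpb probe set lay on the plus strand of chromosome 3 from 158826021 to 158827848 and that of Nfil3 on the plus strand of chromosome 17 from 18092489 to 18107708. The Tef probe set lay on the plus strand of chromosome 7 from 120153820 to 120179984. Cebpa (chromosome 1, plus strand, 87626111 to 87627499) and Cebpg (chromosome 1, minus strand, 87550697 to 87559447) were 66663 bp apart. The promoters of the 4 genes whose values differed between arteries are printed as the sequence context of the genes that the results turn on. They are RefSeq sequences of the rat assembly GRCr8, from 250 bases before to 50 bases after the transcription start and read 5′ to 3′ along the gene, with every motif match in capitals. The windows are chr3:176816755-176817054 (plus strand) for Cebpb, chr1:96829687-96829986 (minus strand) for Cebpg, chr17:12432126-12432425 (plus strand) for Nfil3 and chr7:115206577-115206876 (plus strand) for Tef.
Cebpb: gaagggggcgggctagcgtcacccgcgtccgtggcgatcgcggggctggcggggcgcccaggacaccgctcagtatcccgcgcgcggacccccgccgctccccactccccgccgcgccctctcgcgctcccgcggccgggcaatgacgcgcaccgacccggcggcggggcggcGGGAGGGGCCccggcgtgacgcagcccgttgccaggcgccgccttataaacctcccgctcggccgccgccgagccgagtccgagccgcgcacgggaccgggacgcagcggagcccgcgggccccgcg
Cebpg: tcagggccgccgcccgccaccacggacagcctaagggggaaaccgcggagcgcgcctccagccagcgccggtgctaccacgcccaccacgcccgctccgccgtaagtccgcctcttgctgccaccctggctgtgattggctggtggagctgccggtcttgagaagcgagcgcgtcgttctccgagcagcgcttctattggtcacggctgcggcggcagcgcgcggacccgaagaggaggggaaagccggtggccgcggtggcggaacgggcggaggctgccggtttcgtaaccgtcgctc
Nfil3: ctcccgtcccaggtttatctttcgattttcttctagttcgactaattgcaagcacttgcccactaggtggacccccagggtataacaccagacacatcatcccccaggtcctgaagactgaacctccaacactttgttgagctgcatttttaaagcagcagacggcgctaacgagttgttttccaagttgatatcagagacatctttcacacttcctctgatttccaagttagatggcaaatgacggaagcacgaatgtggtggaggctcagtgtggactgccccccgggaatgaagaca
Tef: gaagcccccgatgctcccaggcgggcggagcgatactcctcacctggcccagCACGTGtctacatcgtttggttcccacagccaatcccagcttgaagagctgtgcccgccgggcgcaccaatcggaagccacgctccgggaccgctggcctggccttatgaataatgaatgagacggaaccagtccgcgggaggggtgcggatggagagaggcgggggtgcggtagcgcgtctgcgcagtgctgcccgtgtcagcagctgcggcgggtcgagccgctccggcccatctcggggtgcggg
Both strands were searched for TTGCGCAA (C/EBP), TTATGTAA and TTACGTAA (D-box), TTGCATCA (C/EBP with ATF), TTCNNNGAA (STAT), TGACGTCA (CRE), TGACTCA (AP-1), CACGTG (E-box, the element of the clock factors), the NF-kappaB pattern (GGGA and CC with any 4 bases between them) and the pattern of the glucocorticoid receptor (GNACA and TGTNC with any 3 bases between them). The Cebpb promoter held 1 match, to the NF-kappaB pattern, at position -77 from the transcription start, a pattern found in 19.3% of 33469 promoters. The Tef promoter held 1 match, an E-box at position -198, found in 6.42% of promoters. The windows of Cebpg, Nfil3 and Cebpa held none of the patterns. No member window held a D-box in these letters, which occurred in 0.893% (TTATGTAA) and 0.12% (TTACGTAA) of promoters, or the C/EBP palindrome, which occurred in 0.17%. A match is a description of the letters and not evidence of binding.

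In the occluded MCAs, expression of Cebpb, Cebpg and Nfil3 was increased as compared with control MCAs, and that of Cebpa did not pass the test. None of the 5 measured genes passed the test in the non-occluded MCAs. Between both arteries, Cebpb and Cebpg differed in the fit over all arrays, and Nfil3 and Tef differed, in opposite directions, once the rat was taken into account. In the comparison with control MCAs 3 of 5 members were higher and 0 lower, where 19.2% of all genes were called higher and 22.9% lower (Benjamini-Hochberg adjusted p under 0.05, limma). In the non-occluded MCAs 0 of 5 were called in either direction (1.79% of all genes higher and 2.12% lower, which were 236 and 280 genes, and 300 and 164 with each array centred on its median). At an unadjusted threshold of 0.05 limma had 2 of the 5 higher, Cebpb and Cebpg, where 7.65% of all genes were higher, and significance analysis of microarrays (SAM) called 0. Occluded against non-occluded MCAs, 2 of 5 were higher and 0 lower, with 17.1% and 15.8% of all genes.

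**Figure D1:**
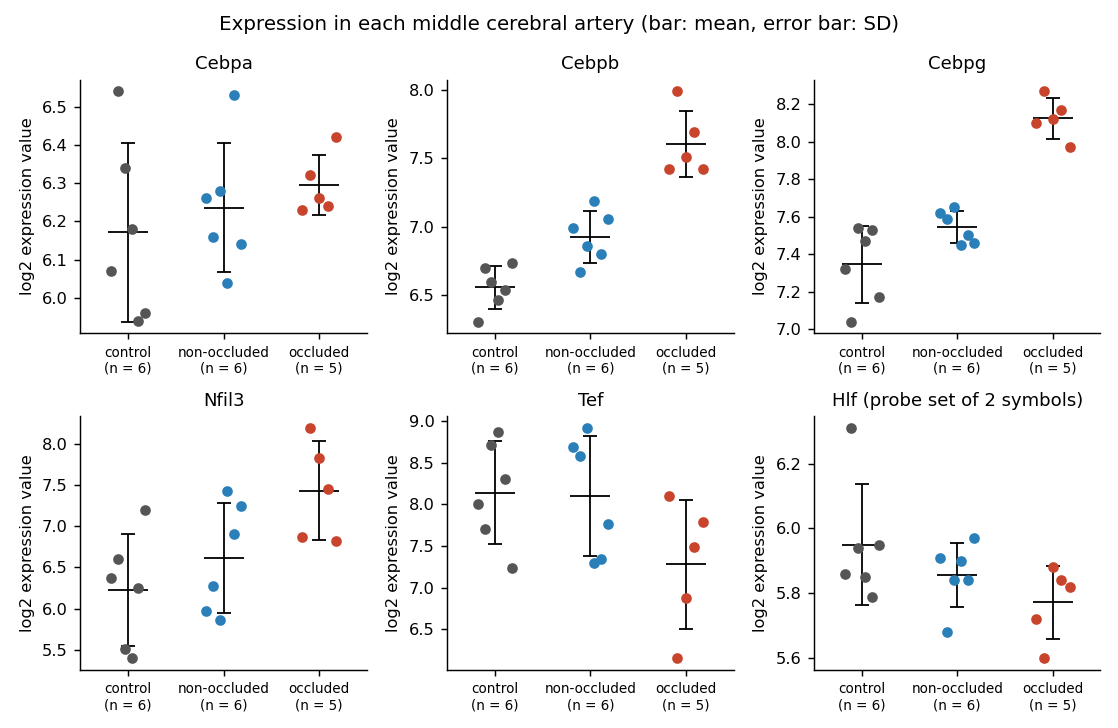
Log2 expression values (y axis) of Cebpa, Cebpb, Cebpg, Nfil3, Tef and the Hlf probe set of 2 symbols on each array, in 6 control, 6 non-occluded and 5 occluded MCAs (x axis). Each point is 1 artery, the horizontal bar is the mean and the error bar the SD, and each panel has its own scale. The occluded points of Cebpb (7.42 to 7.99) and Cebpg (7.97 to 8.27) lie above all others, and those of Nfil3 and Tef overlap with the other groups.

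**Figure D2:**
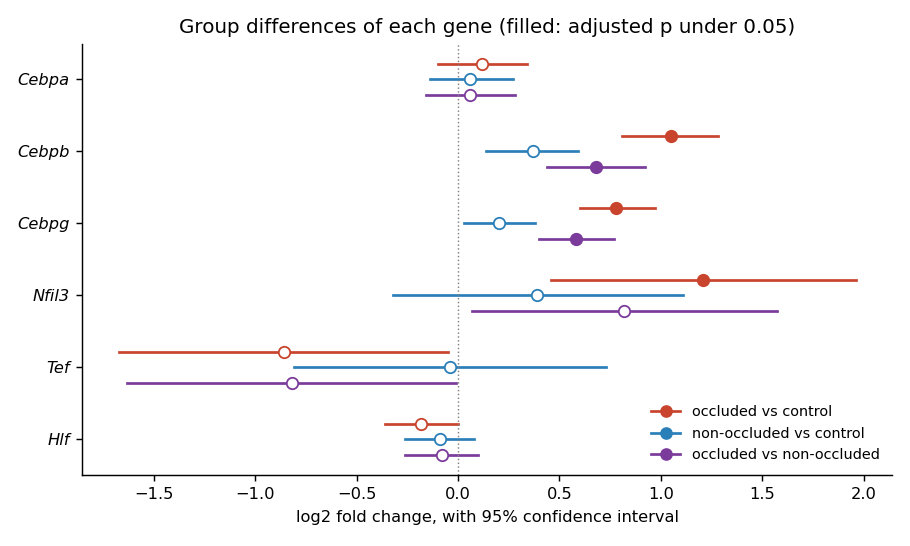
Log2 fold change (x axis) of each gene (y axis) in the 3 comparisons, with the 95% confidence interval from limma as a line and a filled symbol where the adjusted p was under 0.05. The intervals of Cebpb, Cebpg and Cebpa are narrow, while those of Nfil3 (0.46 to 1.96 for occluded against control) and Tef (-1.67 to -0.05) are wide.

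Cebpb was the member with the smallest p in the occluded MCAs. Its log2 values on the 5 occluded arrays were 7.42 in rat F12, 7.99 in F10, 7.51 in F8, 7.69 in F15 and 7.42 in F33. The control values ran from 6.31 to 6.74 (median 6.57) and the non-occluded values from 6.67 to 7.19 (median 6.92). Thus no occluded artery overlapped with either other group, as for 12.6% of all genes that were higher against control and 11.6% that were higher against the non-occluded MCAs, while the non-occluded and control arteries overlapped by a narrow margin. The mean was 7.61 ± 0.24 (SD, n = 5) in occluded and 6.56 ± 0.16 (SD, n = 6) in control MCAs, a log2 fold change of 1.05 (standard error 0.11, 95% confidence interval 0.81 to 1.28, 2.07-fold, adjusted p = 9.34e-07 in limma). Occluded against non-occluded, the log2 fold change was 0.68 (standard error 0.11, 1.6-fold, adjusted p = 0.000148). All 5 rats with both arteries had the higher value on the occluded side, by 0.43 in F12, 0.56 in F33, 0.71 in F8, 0.80 in F10 and 1.02 in F15. The same held in all 5 rats for 21.8% of all genes.

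The non-occluded MCAs lay between the other groups for Cebpb, at 6.93 ± 0.19 (SD, n = 6). The difference from control MCAs was 0.37 on the log2 scale (standard error 0.11, 95% confidence interval 0.14 to 0.59) and did not pass the test (adjusted p = 0.0668). Leaving out 1 array, occluded F10, which enters only the estimate of the spread, brought it past the threshold (adjusted p = 0.0380). Over all omissions of 1 array the adjusted p ran from 0.0380 to 0.138.

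Cebpg, the partner that dimerizes with other C/EBP factors and with ATF4, was also increased in the occluded MCAs. Occluded values were 8.10 in F12, 8.27 in F10, 8.12 in F8, 8.17 in F15 and 7.97 in F33. Control values ran from 7.04 to 7.54 (median 7.39) and non-occluded values from 7.45 to 7.65 (median 7.55). The 5 occluded arteries were above every other artery, and their spread was small, with an SD of 0.11 (n = 5). Of all genes, 12.6% were higher than in control and 11.6% higher than in non-occluded MCAs without overlap. The log2 fold change of Cebpg was 0.78 against control (standard error 0.088, 1.72-fold, adjusted p = 1.5e-06 in limma). Occluded against non-occluded it was 0.58 (standard error 0.088, adjusted p = 5.86e-05), and it fell just short of a minimum of 1.5-fold, which then left Cebpb as the member called. Within rats the increase ran from 0.32 in F33 to 0.82 in F10, with all 5 rats higher, as for 21.8% of all genes. The non-occluded MCAs differed from control by 0.20 (standard error 0.084, 95% confidence interval 0.03 to 0.38), which did not pass the test (adjusted p = 0.202).

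Cebpa, the C/EBP factor of differentiated fat, liver and myeloid cells and the neighbour of Cebpg on chromosome 1, did not pass the test in any comparison. Its values ran from 5.94 to 6.54 (median 6.12) in control, from 6.04 to 6.53 (median 6.21) in non-occluded and from 6.23 to 6.42 (median 6.26) in occluded MCAs. All 3 groups overlapped. The log2 fold change of occluded against control MCAs was 0.12 (standard error 0.10, 95% confidence interval -0.10 to 0.34, adjusted p = 0.380). Of the rats with both arteries, 3 had the higher and 2 the lower value on the occluded side. Cebpa and the Hlf probe set were dim and fell below a filter on dim probe sets.

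Nfil3, which represses D-box genes, was increased in the occluded MCAs, with a wide spread in every group. Occluded values were 6.87 in F12, 8.19 in F10, 7.83 in F8, 7.45 in F15 and 6.82 in F33. Control values ran from 5.40 in F22 to 7.20 in F4 (median 6.31), and non-occluded values from 5.86 in F33 to 7.42 in F10 (median 6.59). The groups overlapped, since control F4 had a higher value than occluded F12 and F33. The mean was 7.43 ± 0.60 (SD, n = 5) in occluded and 6.22 ± 0.68 (SD, n = 6) in control MCAs. This gave a log2 fold change of 1.21 (standard error 0.36, 95% confidence interval 0.46 to 1.96, 2.31-fold, adjusted p = 0.0107 in limma). SAM at a median of 0 false calls did not call it. The residual SD of Nfil3, 0.653, was larger than that of 99.0% of all genes, where the median gene had 0.15, Cebpb 0.195 and Cebpg 0.146.

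Within rats the picture of Nfil3 was uniform. The occluded artery was higher by 0.77 in F10, 0.90 in F12, 0.93 in F8, 0.96 in F33 and 1.18 in F15, a mean of 0.95 ± 0.15 (SD, n = 5 rats), although the non-occluded arteries of these rats differed from each other by more than that. Of all genes, 21.8% were higher in all 5 rats. Without the rat in the fit, occluded and non-occluded MCAs differed by 0.82 (standard error 0.36, adjusted p = 0.0909), short of the threshold. With the rat as a fixed block over the 5 pairs the difference was 0.95 (standard error 0.070, adjusted p = 4.27e-05, limma), where 18.9% of all genes were called higher. With the rat as a random block over all arrays it was 0.86 (standard error 0.28, adjusted p = 0.0209), with 20.5% of genes called higher. Leaving out the non-occluded artery of F10 brought the unpaired difference to 0.98 (adjusted p = 0.0484), and leaving out the occluded artery of F10 brought it to 0.63 (adjusted p = 0.227). The non-occluded MCAs differed from control by 0.39 (standard error 0.34, 95% confidence interval -0.32 to 1.11, adjusted p = 0.575).

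**Figure D3:**
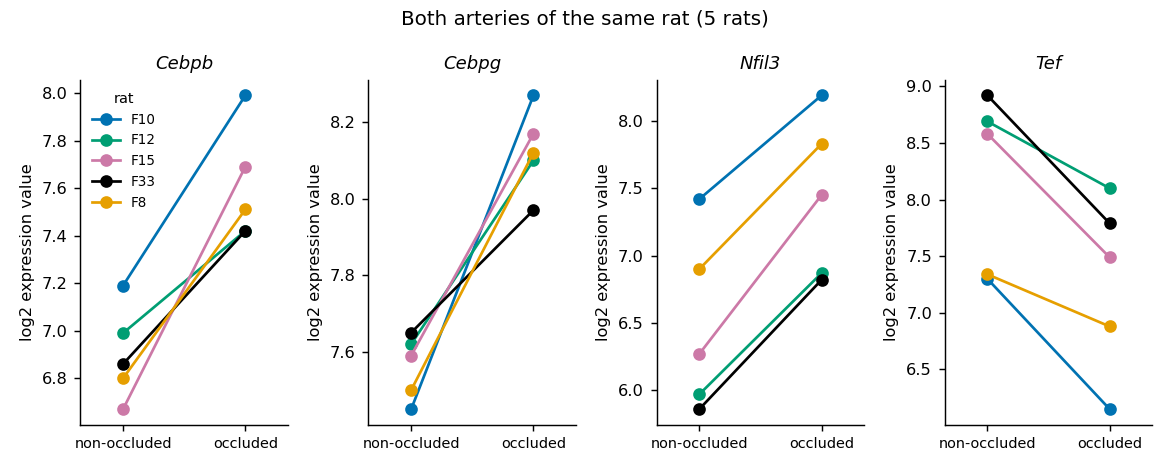
Log2 expression values (y axis) of Cebpb, Cebpg, Nfil3 and Tef on the non-occluded and the occluded side (x axis) of the 5 rats with both arteries, with a line and a colour for each rat and a separate scale for each gene. The lines of Nfil3 rise in parallel from starting values between 5.86 and 7.42, and those of Tef fall in all 5 rats.

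Tef, a PAR factor that activates D-box genes, took the opposite course. Its occluded values were 8.10 in F12, 6.15 in F10, 6.88 in F8, 7.49 in F15 and 7.79 in F33. Control values ran from 7.23 in F4 to 8.87 in F22 (median 8.16) and non-occluded values from 7.30 in F10 to 8.92 in F33 (median 8.17). The groups overlapped widely, and the spread within groups was again among the largest, with a residual SD of 0.704 that exceeded that of 99.3% of all genes. The log2 fold change of occluded against control MCAs was -0.86 (standard error 0.38, 95% confidence interval -1.67 to -0.05) and did not pass the test (adjusted p = 0.0833 in limma). It passed without control F4 (-1.04, adjusted p = 0.0380), without occluded F12 (-1.06, adjusted p = 0.0401) and with array weights (-1.09, adjusted p = 0.0359). Without occluded F10 it was -0.58 (adjusted p = 0.247), and the unpaired difference between both arteries was then -0.53 (adjusted p = 0.314). Over the omissions of 1 array it thus ran from -1.06 to -0.58. Between the non-occluded and the control MCAs the difference was -0.04 (standard error 0.37, 95% confidence interval -0.81 to 0.73, adjusted p = 0.972), and its sign changed without control F16 or F22 or non-occluded F8, F10 or F19, to values of 0.03 to 0.12.

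In every rat with both arteries Tef was lower on the occluded side, by -0.46 in F8, -0.59 in F12, -1.10 in F15, -1.13 in F33 and -1.16 in F10, as in all 5 rats for 22.7% of genes. Without the rat in the fit the difference was -0.82 (standard error 0.38, adjusted p = 0.117). With the rat as a fixed block it was -0.89 (standard error 0.12, adjusted p = 0.000611), with 19.4% of all genes called lower. With the rat as a random block it was -0.84 (standard error 0.30, adjusted p = 0.0321), with 20.2% called lower. Cebpb, Cebpg and Cebpa kept their calls under both blocks.

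Nfil3 and Tef moved against each other between rats as well as between arteries. Across the 6 control arteries the order of the Nfil3 values (5.40 in F22, 5.51 in F16, 6.25 in F21, 6.37 in F36, 6.6 in F26 and 7.20 in F4) was the reverse of the order of the Tef values (8.87, 8.72, 8.30, 8.01, 7.71 and 7.23 in the same rats). Pearson's r was -0.99 (exact permutation p = 0.00139, adjusted p = 0.0139 over the 10 pairs of members compared) and Spearman's rho was -1.0 (exact permutation p = 0.00278, adjusted p = 0.0278), both two-sided with n = 6. Without the 2 arteries farthest from the Nfil3 median r was -0.96 over 4. None of the other 9 pairs passed, the lowest adjusted p of r being 0.284 (Cebpg with Tef, r = 0.82, exact permutation, n = 6). The order was not particular to this pair. Outside the members, Per3 had the same order as Tef in the control arteries, from 9.07 in F22 to 7.84 in F4. Dbp had it too, apart from F16 (11.47) above F22 (11.39). Per3 and Dbp were not among the pairs compared. Correlations were computed over the control arteries only, so no r is given for the non-occluded arteries. Their order was not an exact reversal. F33, F12 and F15 had Nfil3 at 5.86, 5.97 and 6.27 with Tef at 8.92, 8.69 and 8.58, and F8, F19 and F10 had Nfil3 at 6.90, 7.25 and 7.42 with Tef at 7.34, 7.76 and 7.30. Between control rats alone Nfil3 thus spanned more than the mean difference of 1.21 between occluded and control MCAs. The difference of Nfil3 minus Tef was between -3.48 and -0.04 in control MCAs, between -3.06 and 0.11 in non-occluded MCAs and between -1.24 and 2.04 in occluded MCAs. The cages had a light-dark cycle, and no hour of collection was found in the sources.

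**Figure D4:**
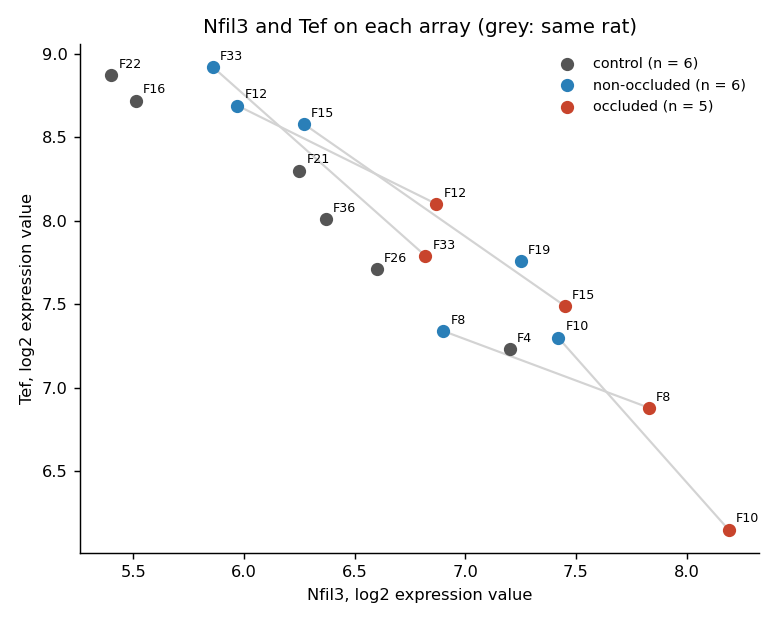
Log2 expression value of Tef (y axis) against that of Nfil3 (x axis) on each of the 17 arrays, coloured by group and labelled with the rat, with a grey line between both arteries of a rat. The arrays form a band from high Tef with low Nfil3 (control F22, 8.87 and 5.40) to low Tef with high Nfil3 (occluded F10, 6.15 and 8.19), and each grey line runs toward lower Tef and higher Nfil3 in the occluded artery.

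The remaining factors of the family gave a mixed picture. The Hlf probe set had values of 5.79 to 6.31 in control, 5.68 to 5.97 in non-occluded and 5.6 to 5.88 in occluded MCAs, which overlapped. Its log2 fold change of occluded against control was -0.18 (standard error 0.086, adjusted p = 0.109 in limma), and counting it as a member changed no count. Dbp, the PAR factor with the best known daily rhythm, had control values of 8.74 to 11.47, non-occluded values of 7.65 to 11.24 and occluded values of 7.17 in F10, 8.82 in F8, 9.43 in F15, 10.23 in F12 and 10.43 in F33. All groups overlapped, with a residual SD of 1.28, and the log2 fold change of -1.15 between occluded and control MCAs did not pass the test (standard error 0.69, adjusted p = 0.203). Without occluded F10 it was -0.64, and the unpaired difference between both arteries was -0.06. Dbp was lower on the occluded side in 4 of 5 rats, from -0.48 in F10 to -1.51 in F15, and at 0.04 in F8. The fixed rat block gave -0.68 (standard error 0.18, adjusted p = 0.0192), whereas the random block gave -0.60 (standard error 0.54, adjusted p = 0.396) and the unpaired fit -0.57 (adjusted p = 0.575). Ddit3, which encodes CHOP, a C/EBP partner of the stress response, was at 7.37 to 7.53 in control and at 7.76 to 8.03 in occluded MCAs, without overlap. Of all genes, 12.6% were higher than in control MCAs without overlap. The log2 fold change of Ddit3 was 0.45 (standard error 0.099, 1.37-fold, adjusted p = 0.00129). Cebpe, the granulocyte factor, had a log2 fold change of -0.02 (standard error 0.11, adjusted p = 0.886).

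Among 9 listed clock genes with D-box elements, 7 were measured. Against control MCAs, Cry1, which encodes a repressor of the clock, was higher in the occluded MCAs (log2 fold change 1.11, standard error 0.18, adjusted p = 7.41e-05) and in the non-occluded ones (0.81, standard error 0.17, adjusted p = 0.0137). Bhlhe41, another repressor, was lower in the occluded MCAs (-0.91, standard error 0.20, adjusted p = 0.00102). The other 5 did not pass the test in either comparison with control MCAs, except that Per3 was lower in the occluded MCAs with the rat as a random block (-0.75, adjusted p = 0.0395, against -0.74 and 0.0639 without it). The median log2 fold change of the 7 was -0.07 in the occluded MCAs, where that of all genes was -0.02. Between both arteries none of the 7 passed the unpaired test, and none passed with the rat as a random block (Per3 adjusted p = 0.0975, Bhlhe41 0.0507, Cry1 0.0995). With the fixed rat block over the 5 pairs, 5 were lower and 1 higher. Of all genes, 19.4% were lower and 18.9% higher with this block. Per3 differed by -0.52 (standard error 0.070, adjusted p = 0.000681), and Bhlhe41 by -0.38 (standard error 0.068, adjusted p = 0.00280). The others called were Per1 at -0.32, Per2 at -0.36, Nr1d1 at -0.24 and Cry1 at 0.27. As for Tef, the spread of Per3 between arteries of 1 group was wide (residual SD 0.564). Per3 was lower on the occluded side in all 5 rats, from -0.35 to -0.73, as were 22.7% of all genes.

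**Figure D5:**
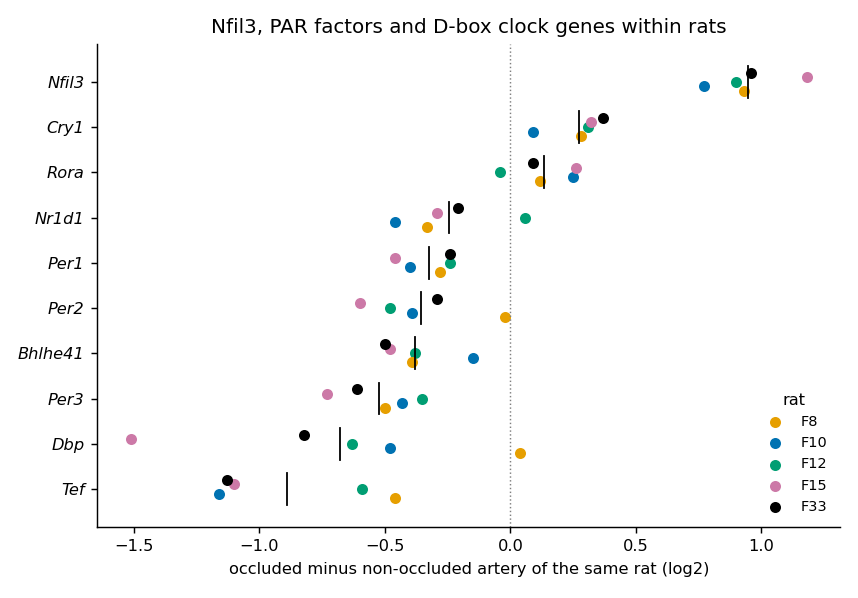
Log2 expression value of the occluded minus that of the non-occluded artery within a rat (x axis) for Nfil3, the measured D-box clock genes, Dbp and Tef (y axis), with 1 point per rat (n = 5) and the mean as a black bar. Nfil3 (0.77 to 1.18) and Cry1 (0.09 to 0.37) are above 0 in all rats, and Tef, Per1, Per2, Per3 and Bhlhe41 are below 0 in all rats. Of all genes, 21.8% are above 0 and 22.7% below 0 in all 5 rats.

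Factors that pair with C/EBP proteins were also listed. Of 10 listed basic leucine zipper partners, 7 were higher and 0 lower against control in the occluded MCAs, with a median log2 fold change of 0.42. Of all genes, 19.2% were higher and 22.9% lower, with a median of -0.02. SAM called 5 of the 7, and 4 had a change of at least 1.5-fold. Atf4, the amino acid and stress response factor that dimerizes with Cebpg, had a log2 fold change of 1.2 (standard error 0.084, adjusted p = 6.77e-09). Jdp2, a repressor that dimerizes with Jun proteins, had 0.45 (standard error 0.067) and Batf3, a factor of dendritic cells, 0.39 (standard error 0.059). In the non-occluded MCAs, where 1.79% of all genes were higher, 2 of 10 were higher (Jdp2 at 0.25 and Batf3 at 0.23). SAM called neither. The call of Batf3 was lost without control F4, F21 or F22 or non-occluded F8, F10 or F19 (adjusted p up to 0.0648), and that of Jdp2 without control F4, F16, F21, F22 or F36 or non-occluded F10, F12, F15, F19 or F33 (adjusted p up to 0.0920). Between both arteries 5 of 10 were higher, and 1 with SAM, where limma called 17.1% of all genes higher.

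The cytokine route that acts upstream of Cebpb was also listed, with 11 of 12 genes measured. The gene without a probe set was Il6 itself. Against control MCAs 7 were higher and 3 lower in the occluded MCAs (median 1.01), where 19.2% of all genes were higher and 22.9% lower. The 3 lower genes were Lifr, Il11ra1 and Tyk2. In the non-occluded MCAs 4 were higher, 2 of them also with SAM, and 0 lower (median 0.16). Here limma called 1.79% of all genes higher and 2.12% lower. Osmr, the oncostatin M receptor, had a log2 fold change of 3.2 (standard error 0.12, adjusted p = 8.76e-12) against control in the occluded arteries and 1.28 (standard error 0.12, adjusted p = 1.11e-05) in the non-occluded arteries. For Stat3, the transcription factor of this route, the values were 1.39 (standard error 0.084) and 0.54 (standard error 0.080). Il6r, the interleukin-6 receptor, had 1.88 (standard error 0.12) in the occluded MCAs. Il6st, the signaling subunit of these receptors, was at 0.37 in the non-occluded MCAs (adjusted p = 0.0233), a call that was lost with SAM, with cyclic loess scaling (adjusted p = 0.053) and without control F36 or non-occluded F15 or F19. Cebpb did not pass the test there, and whether it differs from these genes in its response was not tested.

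Of 27 listed C/EBP target genes of inflammation and the acute phase, 17 were measured. In the occluded MCAs 15 of these were higher than in control MCAs and 0 lower, with a median log2 fold change of 1.5. Of all genes, 19.2% were called higher and 22.9% lower there, with a median of -0.02. Ccl2, the chemokine that attracts monocytes, had 5.51 (standard error 0.27), Socs3, the feedback inhibitor of STAT3 signaling, 3.46 (standard error 0.18), and Timp1, an inhibitor of matrix metalloproteinases, 2.21 (standard error 0.12). In the non-occluded MCAs 5 of 17 were higher, with a median of 0.41, and 0 lower. The shares of all genes there were 1.79% higher and 2.12% lower. None of the 5 had an adjusted p under 0.01, SAM called 4, and the count ran from 3 to 6 when 1 array was left out (3 without non-occluded F15 or F19, where Lcn2 and Ptgs2 were not called). The smallest p-values there belonged to Socs3 (0.87), A2m (1.1), which encodes an acute-phase protease inhibitor of the rat, and S100a9 (1.17), a calcium-binding protein of neutrophils. Between both arteries 11 of 17 were higher and 0 lower, where 17.1% of all genes were higher and 15.8% lower. These genes have many other activators, and the list also holds Cebpe. The list was chosen with earlier results of these data known, so its counts are not a test of C/EBP action.

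C/EBP target genes of fat and glucose metabolism did not move in 1 direction. Of 6 measured genes, 1 was higher (Insr, the insulin receptor, log2 fold change 0.38) and 2 were lower (Slc2a4, the insulin-responsive glucose transporter, -0.73, and Pparg, a fat cell factor, -0.40) in the occluded against control MCAs. SAM called none of the 3. In this comparison limma called 19.2% of all genes higher and 22.9% lower. Of 7 measured PAR target genes of detoxification and vitamin B6 metabolism, 2 were higher and 3 lower in the same comparison. Gstt2, a glutathione transferase, had -0.90 (standard error 0.12, adjusted p = 6.14e-06), and Aldh1a1, a retinaldehyde dehydrogenase, -0.62. Pparg, at -0.40, is on this list too. SAM called 1 of the 5. Between both arteries 2 were higher (Por, the electron donor of cytochrome P450 enzymes, at 0.65 and the quinone reductase Nqo1 at 0.48) and 1 lower (Gstt2 at -0.55). Of all genes, 17.1% were higher and 15.8% lower between both arteries. The call of Nqo1 was lost without non-occluded F8, F12, F15, F19 or F33 or occluded F8, F10 or F33 (adjusted p up to 0.103), and SAM called Por alone. Of 5 measured regulators of C/EBP proteins, in occluded against control MCAs, Trib1, which targets Cebpa protein for breakdown, was higher (2.17, standard error 0.18, adjusted p = 5.05e-08) and Id2, an inhibitor of helix-loop-helix factors, lower (-0.90, standard error 0.11).

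Glucocorticoids also act on Cebpb and on clock genes, and their receptor list had 10 of 10 genes measured. In the non-occluded MCAs, where no member passed the test, 5 of the 10 were higher and 0 lower against control, with a median of 0.58. Of all genes, 1.79% were higher and 2.12% lower, with a median of -0.012. The 5 included Mt2A (2.93, standard error 0.15), a metallothionein, Zbtb16 (2.15, standard error 0.21) and Fkbp5 (1.62, standard error 0.21), a chaperone of the receptor. In the occluded MCAs 3 were higher and 2 lower, among them the receptor gene Nr3c1 (-0.54, standard error 0.072, adjusted p = 9.95e-06). There 19.2% of all genes were higher and 22.9% lower. Between both arteries 1 was higher and 5 were lower, 1 of these also with SAM. The limma shares of all genes were 17.1% higher and 15.8% lower. With the fixed rat block 2 were higher and 7 lower, and with the random block 1 was higher and 6 were lower (Sgk1 adjusted p = 0.224 and Per1 0.307 were not called). Of all genes, 18.9% were higher and 19.4% lower with the fixed block, and 20.5% and 20.2% with the random block. A part of glucocorticoids in the values of the members or the clock genes was not tested.

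The genes most like each member were found by the root mean square difference between their deviations from the control mean over all 17 arrays. Nearest to Cebpb were Aff1, a factor of transcription elongation, at 0.152, RGD1563982 at 0.174 and Etf1, the translation termination factor, at 0.186, where the median of all genes was 0.666. Nearest to Cebpg were Fam108b1 (0.0905), Polr1b, a subunit of RNA polymerase I (0.109), and Twf1, an actin-binding protein (0.110). For Tef the first was Per3 at 0.235, followed by Epm2a, the laforin phosphatase, at 0.319 and Ak4, a mitochondrial adenylate kinase, at 0.471. The gap from Per3 to the median of all genes (0.806) was wide. By this measure Nfil3 had no close partner, with Cdkn1a, a cell cycle inhibitor, at 0.477. Both Ddah1, which degrades an inhibitor of nitric oxide synthase, and Foxo3, a forkhead factor, were at 0.480, against 0.94 for the median gene. The measure does not find genes that move against Nfil3. The median gene lay about as far as a gene that does not vary, since the root mean square of the deviations was 0.915 for Nfil3 itself and 0.791 for Tef. Trim8, Fam96a and Wdr41 were nearest to Cebpa (0.111 to 0.124) and Bmyc, Gramd1a and RGD1562618 to the Hlf probe set (0.0916 to 0.0967), where a gene that hardly varies is close to many others (median of all genes 0.276 and 0.262).

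The segments carried smooth muscle markers at a high level, with a mean of the 5 measured markers of 11.93 to 12.31 in control, 11.90 to 12.29 in non-occluded and 11.74 to 12.04 in occluded MCAs. In whole arteries, fewer cells of a type and less RNA per cell cannot be told apart. Markers of other cells moved with the groups, where 19.2% of all genes were higher and 22.9% lower in occluded against control MCAs. The 5 measured endothelial markers had means of 10.28 to 10.51 in control, 10.06 to 10.56 in non-occluded and 9.21 to 10.49 in occluded MCAs, and 3 of them were lower (Tek, Cldn5 and Tie1). Of 6 measured monocyte and macrophage markers, 2 were higher in the occluded MCAs (Itgam and Cd163), with means of 7.36 to 8.36 in control, 7.86 to 8.72 in non-occluded and 7.82 to 8.58 in occluded MCAs. Of 7 neutrophil markers 2 were measured, with means of 4.86 to 5.11, 5.29 to 6.35 and 5.52 to 6.50 in the same order, and S100a9 was higher in both artery groups. The other, Csf3r, was called in neither, and S100a9 is also on the list of C/EBP target genes. The 3 measured astrocyte markers had means of 5.72 to 7.27 in control, 6.34 to 7.49 in non-occluded and 6.65 to 8.82 in occluded MCAs, and Gfap was higher in both artery groups. Of 3 measured neuron markers, 2 were higher in the occluded MCAs (Snap25 and Syt1), with means of 5.43 to 5.64 in control and 5.57 to 6.12 in occluded MCAs. The part of these cells in the values of Cebpb, Cebpg, Nfil3 and Tef was not tested.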

How the data were processed

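Total RNA from each MCA was hybridized to a GeneChip array of whole rat transcripts (Affymetrix). The deposited values are log2 signals that the authors summarized per probe set in Expression Console 1.1.2 by the RMA method, which corrects background and equalizes the distributions of all arrays. A shift of most genes in 1 direction would not be visible after this normalization. Dim probe sets, judged by negative controls, had been filtered out by the authors for each comparison on its own, and the 13809 of 14143 probe sets with values in all groups were tested. The deposited fold changes, p-values and SAM scores of the authors were not used. Of 22 symbols turned into dates by a spreadsheet, accessions gave back 18.

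All 17 arrays entered 1 group-means model in limma 3.58.1 (R 4.3.3, 14 residual and 3.48 prior degrees of freedom), and p-values were adjusted by the Benjamini-Hochberg method over all tested probe sets. Gene counts are over 13197 genes with a single symbol, with the brightest probe set used for 221 genes that had several. The methods' SAM was rebuilt with 100 permutations. The labels name the same rat for both arteries of 5 rats. After removal of group means, same-rat arteries correlated at 0.156 to 0.486 (median 0.351) and the 25 other pairs at -0.294 to 0.327, and 4 of 5 arteries correlated best with their own rat. Fits with the rat as a fixed block (5 pairs) and as a random block (consensus correlation 0.310) were therefore made. The limma fit without the rat and SAM were also run on simulated arrays, for occluded against control MCAs only. Those arrays were drawn independently, so the fits with the rat as a block were not tried on them. Python 3.11.15 was used for the remaining steps. The members, gene lists, markers and motifs were chosen with earlier results of these data known. Named genes were all members, in each list at most the 3 genes with the smallest adjusted p in a comparison together with Ddit3 and Dbp, and the 3 genes most like each member. Clock genes called with the rat block, Cebpe, Lcn2, Ptgs2, Sgk1, Lifr, Il11ra1, Tyk2 and the markers named were added after their values were seen. Il6 was named because it had no probe set. Replicates within a group were separate rats.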

Additional observations from a re-analysis of the deposited data

Results flagged for a closer look

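1 of 18 sets of values (6 genes in 3 groups) had an array far from the others. In the control group the Hlf probe set was at 6.31 in F26, where the other 5 control arrays lay between 5.79 and 5.95, and the gap to the nearest array was 0.681 of the whole range of the group (Dixon's test). Chance flags about 1 in 20 such sets. Without control F26 the log2 fold change of Hlf between occluded and control MCAs moved from -0.18 to -0.11, and it passed the threshold in neither case.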

How the results depend on the processing

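Each comparison was repeated under 13 other settings and with each of the 17 arrays left out. Of 18 gene results (6 probe sets in 3 comparisons), 11 kept their direction and their side of the threshold under all alternatives that gave a value. Cebpb and Cebpg kept their calls in both comparisons of the occluded MCAs, except that a minimum of 1.5-fold left 1 member higher than in the non-occluded MCAs (Cebpg lost). SAM and an adjusted p under 0.01 lost Nfil3 in occluded against control MCAs. The count of members lower there moved from 0 to 1 (Tef) with array weights, and ran from 0 to 1 over the omissions of 1 array. In occluded against non-occluded MCAs it became 1 with a random replicate block for the rat, with a fixed replicate block and with array weights, and Nfil3 became a call under the same settings (1.03 with array weights). In non-occluded against control MCAs the count higher ran from 0 to 1 when 1 array was left out (Cebpb without occluded F10). The difference of Tef there ran from -0.22 to 0.12 over the omissions and changed sign, to 0.07 without control F16, 0.11 without control F22, 0.12 without non-occluded F10, 0.11 without non-occluded F8 and 0.03 without non-occluded F19. Of 73 genes of the related lists, 11 were lower in occluded against control MCAs, and this was 5 with SAM and 7 with a minimum of 1.5-fold. In non-occluded against control MCAs 18 were higher, and 6 with an adjusted p under 0.01, and 0 were lower, but 2 with array weights and 0 to 1 when 1 array was left out. In occluded against non-occluded MCAs 10 were lower, and this was 2 with SAM, 17 with the fixed but 11 with the random replicate block, 5 with a minimum of 1.5-fold and 6 with an adjusted p under 0.01. Alternatives for the related lists, and the count that includes Hlf, were added after seeing the data. No member had another probe set of its own symbol, so that alternative gave no value, and a filter on dim probe sets (under 6.37) removed Cebpa and Hlf. Over all genes, SAM called 1160 higher and 1035 lower in occluded against control MCAs (2540 and 3017 in limma), 103 and 60 in non-occluded against control (236 and 280) and 990 and 494 between both arteries (2259 and 2079). In the same order, a minimum of 1.5-fold left 936 and 880, 92 and 31, and 741 and 481, and an adjusted p under 0.01 left 1924 and 2171, 84 and 60, and 1607 and 1306. Both replicate blocks changed no other member call. Arrays have no read depth, and their number limits the precision. The cause of these changes was not tested.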

Other observations

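Ddit3 divided the 6 non-occluded arteries. Values were 7.28 in F8 and 7.41 in F10, within or below the control range of 7.37 to 7.53, and 7.81 in F15, 7.82 in F33, 7.84 in F19 and 7.87 in F12, above it. The same F8 and F10 arteries had the lowest Tef values of the group (7.34 and 7.30). In the occluded arteries Ddit3 was at 7.76 in F10 and 7.80 in F8, the lowest of the 5, and all 5 rats had the higher value on the occluded side, by 0.53 in F8, 0.35 in F10, 0.15 in F12, 0.15 in F33 and 0.09 in F15. Higher values in all 5 rats occurred for 21.8% of all genes. The unpaired difference of Ddit3 between both arteries, 0.22 (standard error 0.099, adjusted p = 0.104 in limma), did not pass the test, and with the rat as a fixed block it was 0.25 (standard error 0.077, adjusted p = 0.0311). Against control MCAs the non-occluded MCAs differed by 0.23 (adjusted p = 0.192), and by 0.31 without non-occluded F8 (adjusted p = 0.0457). Cry1, in contrast to the other clock genes, had little overlap between control MCAs (6.00 to 6.52) and non-occluded MCAs (6.51 to 7.45).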
